A study of Homo sapiens with 12 samples.

Results

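The 40 genes described here make up the amino acid response that is driven by the transcription factor ATF4, and were followed in HepG2, an established human hepatoma line. They were chosen by name, from what is known of the pathway: ATF4 and its partner factors, enzymes of serine, glycine and one-carbon metabolism and of other amino acids, amino acid transporters, tRNA synthetases, and stress and secreted factors that ATF4 switches on. The choice was made with earlier results of these data known. Each gene was read from its brightest probe set among those annotated with a single gene symbol. Such a probe set was found for 38 of the 40 genes, all except CBS and GPT2, and all 38 passed the filter on dim genes, among 13813 genes tested in all. HepG2 cells carried either a non-relevant control small-hairpin (sh-con) or a hairpin directed at p53 (sh-p53). They were treated for 24 h with DMSO as the control, with 10 uM Nutlin, which blocks the binding of p53 to MDM2, or with 0.5 mM AICAR, an activator of the energy-sensing kinase AMPK, and both are given in the series' design as p53 stimulators. The 6 groups were therefore sh-con in DMSO, Nutlin and AICAR and sh-p53 in DMSO, Nutlin and AICAR, each with 2 Affymetrix arrays from biological duplicates. Each hairpin was used as a single line, so p53 knockdown and any other difference between the lines cannot be told apart.

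Cells that run short of amino acids, or that accumulate misfolded protein in the endoplasmic reticulum, activate kinases that phosphorylate the translation initiation factor eIF2. Most protein synthesis then slows, while the ATF4 mRNA is translated more, and ATF4 with partners of the C/EBP family binds a composite element, the CARE, at genes for amino acid synthesis, uptake and tRNA charging. ATF4 is controlled at its transcript level as well as by translation, and an array reads the transcript only. In liver cells the pathway is known for matching amino acid supply to protein synthesis and for driving FGF21, a hormone of fasting.

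The promoters of the genes were searched for the letters of the CARE, TGATGNAAN, on both strands of RefSeq windows (GRCh38.p14) that run from 250 bases before to 50 bases after an annotated start. Windows were matched by symbol for 31 of the 40 genes, with 50 windows in all, since some genes have several starts, and ALDH1L2, EIF4EBP1, GPT2, NUPR1, PSPH, PYCR1, SHMT2, SLC7A11 and VEGFA had no match by symbol. The letters stood in a window of 12 of the 31 genes (38.7%), against 4.45% of the 27305 genes of the table and 2.77% of its 10836 genes that were also tested on the arrays. By window, they stood in 24.0% of the 50 windows of these genes, against 3.61% of all 35116 windows of the same length. The 12 genes were AARS1, ASNS, CEBPG, CHAC1, FGF21, GARS1, MARS1, NARS1, SLC1A4, SLC1A5, SLC3A2 and SLC7A1. The 40 genes had been listed as ATF4 targets, so these shares are a description of the list and no test was made. The stretches of 30 bases around the 9 matches that begin before the annotated start are shown, so that the letters can be set beside the levels of their genes, and those of NARS1, SLC3A2 and SLC7A1, which begin after it, are not shown. Each is given 5′ to 3′ with the match in capitals.
AARS1: ctaacttggcTGATGCAACtgcgagaaaag
ASNS: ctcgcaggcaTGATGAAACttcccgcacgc
CEBPG: gcgcggcgtcTGATGCAACctgccggcaac
CHAC1: ctggcaggagTGATGCAACggcaggggagg
FGF21: tcctcctcccTGATGCAATcctggtgtttc
GARS1: gctcggagcaTGATGAAATcgccgcgtaaa
MARS1: aatccctcgcTGATGCAACcggaaccggcc
SLC1A4: cggctggagaTGATGCAAAcgggagccgcg
SLC1A5: aggaagtggcTGATGCAAGctgtccagggt

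The ASNS stretch lay at chr7:97872457-97872486 on the minus strand, with the match beginning 68 bases before the start of this gene for asparagine synthetase, in whose promoter such an element is well studied. On the plus strand were those of AARS1 at chr16:70289676-70289705 and CEBPG at chr19:33374061-33374090. On the minus strand were CHAC1 at chr15:40953250-40953279, FGF21 at chr19:48755458-48755487, GARS1 at chr7:30594833-30594862, MARS1 at chr12:57488052-57488081, SLC1A4 at chr2:64989380-64989409 and SLC1A5 at chr19:46784892-46784921. The stricter letters TGATGCAAT were found only at FGF21 among the 31 genes, and in 0.293% of all genes of the table. The bases after TGATG varied among the matches, and the MARS1 and SLC1A4 matches ran across the annotated start. A match in letters is a description and does not show that ATF4 was bound.

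On the arrays the median probe set lay between 5.64 and 5.84 on the log2 scale, on which all levels and differences below are given unless called fold. Duplicate arrays agreed across genes with r between 0.990 and 0.996, and the median gap between duplicates over the 38 genes ran from 0.08 in sh-con DMSO to 0.26 in sh-con AICAR. The hairpin labels were checked with the p53 targets CDKN1A and MDM2, since the targeted transcript itself is not analysed here. CDKN1A read 7.06 and 6.93 in the sh-con DMSO arrays and 6.14 and 6.32 in those of sh-p53, and rose to 9.92 and 9.76 with Nutlin in sh-con and to 7.61 and 7.63 in the sh-p53 line. Its hairpin difference in DMSO, a fall of 0.76 ± 0.13 (adjusted p = 0.00625), was lost without DMSO array 1 of sh-con or DMSO array 1 of sh-p53 (adjusted p = 0.183 for each). CDKN1A rose in sh-p53 by 1.39 ± 0.13 with Nutlin and 1.76 ± 0.13 with AICAR, against 2.84 ± 0.13 and 2.27 ± 0.13 in sh-con. MDM2 read 10.63 and 10.47 in sh-con DMSO and 9.78 and 9.96 in sh-p53 DMSO. With Nutlin MDM2 rose by 1.59 ± 0.14 in sh-con and 1.32 ± 0.14 in the sh-p53 line. Its changes with AICAR were 0.69 ± 0.14 and 0.17 ± 0.14. Both targets thus still responded to Nutlin in the sh-p53 line. Of 11 hepatocyte markers 10 were measured, each at or above the 98.8th percentile of genes. In sh-con 1 of the 10 rose with Nutlin and 1 with AICAR, and 0 passed with either compound in sh-p53 or between the lines in DMSO. Of 6 fibroblast markers DCN and LUM lay below the filter on dim genes and COL1A1, COL1A2, COL3A1 and PDGFRB above it, at means of 5.44 to 6.47. Of 6 endothelial markers 5, PECAM1 and CDH5 among them, lay below the filter, and LYVE1 lay above it and rose by 3.65 with Nutlin in sh-con, where the summed level of the list was 8.31 to 8.72 against 6.70 to 6.73 in DMSO. Of the leukocyte markers PTPRC and CD3E lay below the filter and CD14, CD68 and LYZ above it, LYZ at a mean of 12.48 in the 99.9th percentile of genes. Of these 3 above the filter 1 rose with Nutlin in sh-con and 2 rose with AICAR in each line, while the summed level of that list lay between 12.40 and 12.68 in all 6 groups. Of 4 cholangiocyte and progenitor markers above the filter 1 rose with Nutlin in sh-con, 1 fell with AICAR in sh-p53 and 1 was lower in sh-p53 than in sh-con in DMSO, and the summed level of the list ran from 10.86 to 11.84. Of 4 fibroblast markers 0 passed in these comparisons of a compound with DMSO or of the lines in DMSO. Their part in the results was not tested.

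Without a compound no amino acid response gene passed the test between the lines. In DMSO 0 of the 38 were higher and 0 lower in sh-p53 than in sh-con by limma, at an adjusted p under 0.05, where 0.261% and 0.384% of all genes tested were called, and at an unadjusted p under 0.05 the counts were again 0 and 0. The differences ran from -0.16 to 0.28 with a median of 0.02. ATF4 itself differed by 0.03 ± 0.15 (95% interval -0.29 to 0.35).

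AICAR lowered the transcripts of much of the response in both lines, that of ATF4 among them. In bulk RNA a lower level per cell and fewer cells with the transcript cannot be told apart. In sh-con 23 of the 38 genes fell and 2 rose, where 23.2% of all genes fell and 14.6% rose, and 8 of the 23 fell by at least 2-fold. In sh-p53 22 of the 38 fell and 0 rose, where 21.6% of all genes fell and 16.2% rose. Of the 22, 5 fell by at least 2-fold. The share of all genes with falls of that size is not given here for either line. The median gene of the response changed by -0.46 in sh-con and -0.49 in the sh-p53 line, against 0.04 and 0.07 for all genes tested. The lines share no arrays, and 18 genes fell in both, 78.3% of those that fell in sh-con and 81.8% of those that fell in the sh-p53 line. The same overlap over all genes that fell is not given here, so whether these shares are high for the response was not tested. Leaving out DMSO array 1 of sh-p53 reduced the 22 of sh-p53 to 14, and over the arrays left out in turn the counts that fell ran from 17 to 24 in sh-con and from 14 to 22 in the sh-p53 line. Centring each array on its median moved all changes with AICAR down by 0.14 in sh-con and 0.15 in the sh-p53 line, and with it 25 and 22 genes of the response fell while the share of calls that were rises, over all genes, went from 38.7% to 22.0% in sh-con and from 42.8% to 23.1% in the sh-p53 line.

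**Figure D1:**
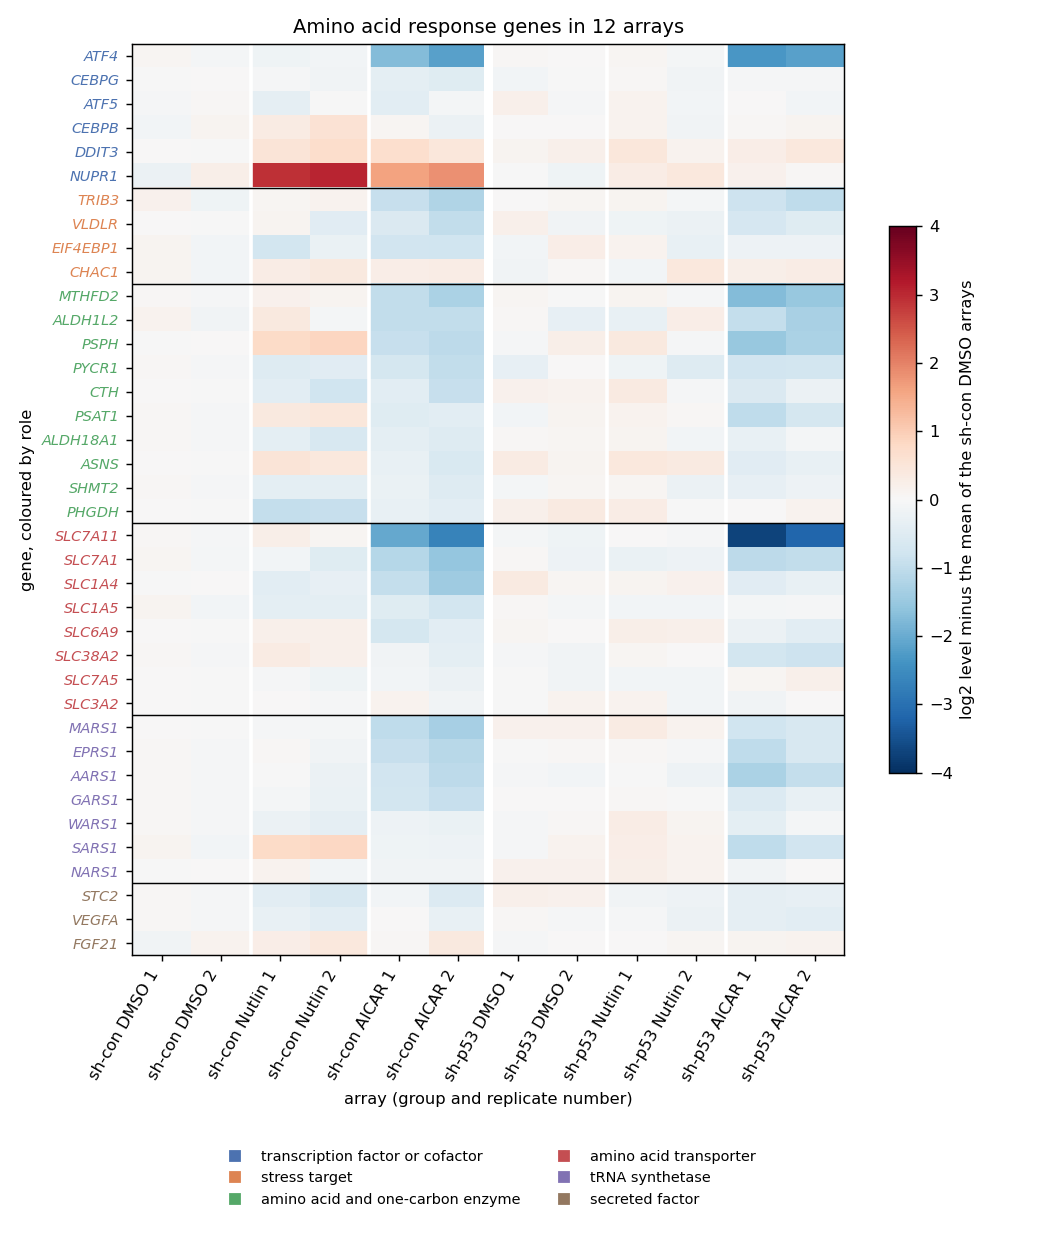
Level of each of the 38 genes (rows, by role) on each of the 12 arrays (columns), as log2 level minus the gene's mean over the 2 sh-con DMSO arrays; blue is lower and red higher. The AICAR columns of both lines are blue over most rows, most deeply at SLC7A11 and ATF4, while NUPR1 is red with Nutlin and AICAR in sh-con.

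Nutlin moved some of these genes up and some down in sh-con, and its calls in the sh-p53 line were 0. In sh-con 7 of the 38 rose, where 11.3% of all genes rose, and 7 fell, where 18.9% fell. The falls were thus near the share of all genes. In sh-p53 0 rose and 0 fell, where 0.0796% of all genes rose and 0% fell, and at an unadjusted p under 0.05 the counts were 1 and 1. The sh-con counts depended on single arrays. The 7 that rose became 4 without DMSO array 1 of sh-con and 3 without Nutlin array 2 of sh-con, and the 7 that fell became 1 without DMSO array 1 of sh-con, 3 without DMSO array 2 of sh-con, 4 without Nutlin array 1 of sh-con and 2 without Nutlin array 2 of sh-con. Only NUPR1, PSPH and SARS1 among those that rose and PHGDH among those that fell held in each of the 20 alternatives to the analysis.

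Tests of the difference between the lines, as an interaction, picked out few genes. For Nutlin 1 of the 38 had a higher response in sh-p53, where 4.67% of all genes did, and 1 a lower response, where 2.73% did. For AICAR 0 were higher, where 0.304% of all genes were, and 1 lower, where 0.709% were. The genes were PHGDH and NUPR1 for Nutlin and NUPR1 for AICAR, and their values are given with their roles. The count for PHGDH became 0 when any 1 of 6 arrays was left out, named with that gene, and the count of lower Nutlin responses went from 1 to 2 without Nutlin array 1 of sh-p53 and to 3 without either sh-con AICAR array. Without AICAR array 2 of sh-con SLC7A11 joined NUPR1 among the lower AICAR responses, for a count of 2.

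Among the transcription factors, ATF4 was the one that fell in both lines with AICAR. Its brighter probe set (8180337) read 10.60 and 10.43 in sh-con DMSO, 10.35 and 10.41 in sh-con Nutlin and 8.77 and 8.34 in sh-con AICAR. In sh-p53 it read 10.55 and 10.53 in DMSO, 10.60 and 10.42 in Nutlin and 8.18 and 8.36 in AICAR. All AICAR arrays lay more than a log2 unit below all others, and DMSO and Nutlin arrays overlapped in sh-p53 but not in sh-con. With AICAR in sh-con ATF4 fell by 1.96 ± 0.15 (SE), 3.89-fold (adjusted p = 4.76e-08), and by 2.27 ± 0.15 in sh-p53, 4.83-fold (adjusted p = 1.33e-08), and the responses differed between lines by -0.31 ± 0.22 (adjusted p = 0.627). With Nutlin it changed by -0.13 ± 0.15 in sh-con (95% interval -0.46 to 0.19) and by -0.03 ± 0.15 in sh-p53 (-0.36 to 0.29), and neither passed. The second, dimmer ATF4 probe set (8073148) read 8.13 and 8.19 in sh-con DMSO and 7.50 and 7.40 in sh-con AICAR, and 8.30 and 8.31 in sh-p53 DMSO and 7.41 and 7.19 in sh-p53 AICAR. It fell with AICAR by 0.71 ± 0.14 in sh-con (adjusted p = 0.000674) and by 1.01 ± 0.14 in sh-p53 (adjusted p = 2.69e-05), the same direction with a smaller size, so the size of the ATF4 change depends on the probe set.

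**Figure D2:**
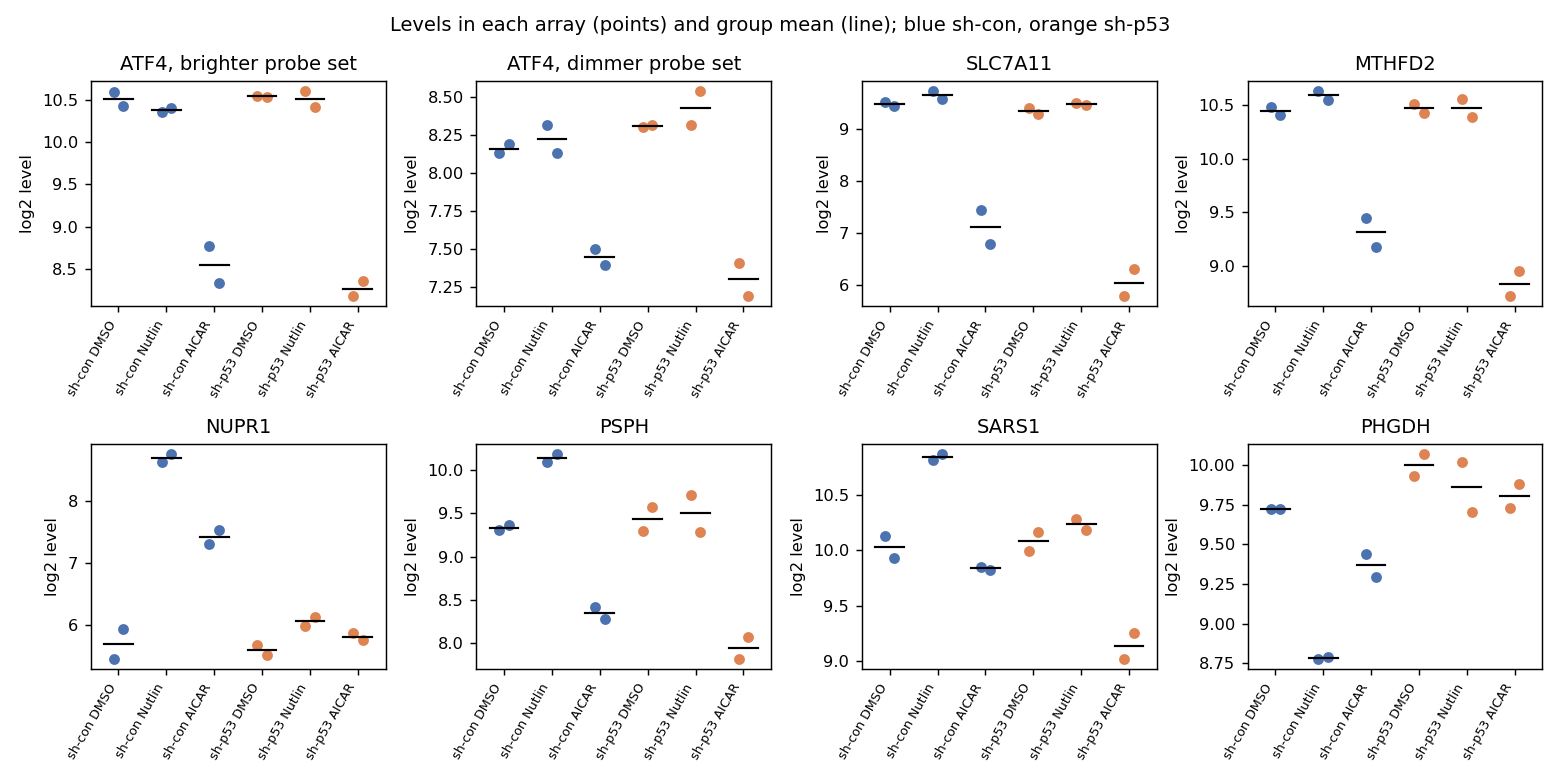
Log2 level on each array (points, 2 per group) and group mean (short lines) for both ATF4 probe sets and for SLC7A11, MTHFD2, NUPR1, PSPH, SARS1 and PHGDH, by hairpin and treatment. Both ATF4 probe sets, SLC7A11 and MTHFD2 are lowest in the AICAR groups of both lines; PSPH is highest with Nutlin in sh-con.

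NUPR1, a small stress-induced nuclear cofactor, rose with both compounds in sh-con. It read 5.47 and 5.94 in sh-con DMSO, 8.63 and 8.76 in sh-con Nutlin and 7.31 and 7.54 in sh-con AICAR, against 5.69 and 5.52, 6.00 and 6.14 and 5.87 and 5.76 in the same 3 treatments of sh-p53. In sh-con each treatment's arrays stood apart from the others, and in sh-p53 all 6 arrays lay between 5.52 and 6.14. NUPR1 rose by 2.99 ± 0.16 with Nutlin, 7.94-fold (adjusted p = 1.30e-10), and by 1.72 ± 0.16 with AICAR, 3.29-fold (adjusted p = 3.03e-07), in sh-con, while the changes in sh-p53 were 0.46 ± 0.16 (adjusted p = 0.518) and 0.21 ± 0.16 (adjusted p = 0.307). The response in sh-p53 minus that in sh-con was -2.53 ± 0.23 for Nutlin (adjusted p = 5.51e-07) and -1.51 ± 0.23 for AICAR (adjusted p = 0.00233), and each of these calls held in all 20 alternatives.

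Of the other factors DDIT3, which encodes the stress factor CHOP, rose in sh-con by 0.62 ± 0.15 with Nutlin (adjusted p = 0.00413) and by 0.56 ± 0.15 with AICAR (adjusted p = 0.00595), and in sh-p53 its values were 0.13 and 0.18, neither passing. The DDIT3 call with Nutlin was lost without Nutlin array 2 of sh-con (adjusted p = 0.0635). The DDIT3 call with AICAR was lost with each array centred on its median (adjusted p = 0.0548). CEBPB, a C/EBP factor of the liver, rose by 0.45 ± 0.15 with Nutlin in sh-con (adjusted p = 0.0351). The CEBPB call with Nutlin was lost with each array centred on its median (adjusted p = 0.0922), without DMSO array 1 of sh-con (0.276) or Nutlin array 2 of sh-con (0.281). CEBPG, a partner that forms dimers with ATF4 and other factors, fell by 0.45 ± 0.13 with AICAR in sh-con (adjusted p = 0.0123) and stood at 0.03 ± 0.13 in sh-p53. The CEBPG call with AICAR was lost without DMSO array 1 of sh-con (adjusted p = 0.0698), DMSO array 2 of sh-con (0.0681) or AICAR array 2 of sh-con (0.0791). ATF5, a relative of ATF4, passed in no comparison, and in sh-con it changed by -0.19 with Nutlin and by -0.24 with AICAR.

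Of the 4 stress targets, TRIB3, a pseudokinase that feeds back on ATF4, fell in both lines. It read 8.35 and 8.02 in sh-con DMSO, 8.25 and 8.33 in Nutlin and 7.28 and 6.97 in AICAR, and 8.21 and 8.28 (DMSO), 8.30 and 8.12 (Nutlin) and 7.36 and 7.17 (AICAR) in sh-p53. The AICAR arrays of both lines lay below all others. The fall was 1.06 ± 0.15 in sh-con (adjusted p = 3.32e-05) and 0.98 ± 0.15 in sh-p53 (adjusted p = 7.80e-05). VLDLR, a lipoprotein receptor, fell with AICAR by 0.80 ± 0.18 in sh-con and by 0.61 ± 0.18 in the sh-p53 line. The VLDLR call in sh-p53 was lost without DMSO array 1 of sh-p53 (adjusted p = 0.153) or AICAR array 1 of sh-p53 (0.114). EIF4EBP1, which encodes a repressor of cap-dependent translation, fell in sh-con by 0.77 ± 0.18 with AICAR (adjusted p = 0.00251) and by 0.51 ± 0.18 with Nutlin (adjusted p = 0.0391). The EIF4EBP1 call with Nutlin was lost after another quantile normalisation (adjusted p = 0.144), without DMSO array 1 of sh-con (0.25), DMSO array 2 of sh-con (0.0581) or Nutlin array 1 of sh-con (0.323). CHAC1, a glutathione-degrading enzyme, passed in no comparison and was among the dimmest of the 38, at 4.82 and 4.62 in sh-con DMSO and 4.99 and 5.003 in sh-con AICAR.

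Of the 10 enzymes 9 fell with AICAR in sh-con and 7 in the sh-p53 line, where 23.2% and 21.6% of all genes fell. Of the 10, 0 rose in either line, where 14.6% and 16.2% of all genes did. MTHFD2, a mitochondrial folate enzyme, read 10.49 and 10.41 in sh-con DMSO, 10.63 and 10.55 in Nutlin and 9.45 and 9.17 in AICAR, and 10.52 and 10.43 (DMSO), 10.56 and 10.39 (Nutlin) and 8.71 and 8.95 (AICAR) in sh-p53. The AICAR arrays of each line lay below all the others. MTHFD2 fell by 1.14 ± 0.14 in sh-con (adjusted p = 7.83e-06) and by 1.64 ± 0.14 in sh-p53 (adjusted p = 1.69e-07), and its other probe set fell by 1.39 ± 0.17 and fell by 1.497 ± 0.17 in the same comparisons. ALDH1L2, which also works in mitochondrial folate metabolism, read 6.19 and 5.89 in sh-con DMSO, 6.41 and 5.95 in Nutlin and 5.05 and 5.05 in AICAR. In sh-p53 ALDH1L2 read 6.10 and 5.72 in DMSO, 5.74 and 6.29 in Nutlin and 5.08 and 4.74 in AICAR. With AICAR it was below every other array in each line and fell by 0.99 ± 0.20 in sh-con and 1.00 ± 0.20 in the sh-p53 line (adjusted p = 0.000886 and 0.000809). Its AICAR levels lay near the filter level of 4.58, which limits how far the size of these falls can be read.

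The 3 enzymes that make serine from a glycolytic intermediate differed in their response to Nutlin. PSPH, which catalyses the last step, read 9.30 and 9.36 in sh-con DMSO, 10.09 and 10.18 in Nutlin and 8.42 and 8.28 in AICAR, and 9.30 and 9.57 (DMSO), 9.72 and 9.28 (Nutlin) and 7.82 and 8.08 (AICAR) in sh-p53. In sh-con Nutlin arrays lay above and AICAR arrays below the DMSO arrays, and in sh-p53 only the AICAR arrays stood apart. PSPH rose by 0.80 ± 0.16 with Nutlin in sh-con (adjusted p = 0.00107) and fell with AICAR by 0.98 ± 0.16 in sh-con and 1.48 ± 0.16 in the sh-p53 line (adjusted p = 0.000113 and 1.80e-06). Its second probe set rose by 0.82 ± 0.21 and fell by 1.07 ± 0.21 and 2.13 ± 0.21 in the same comparisons. PSAT1, the middle step, fell with AICAR by 0.46 ± 0.14 in sh-con and 0.87 ± 0.14 in the sh-p53 line, and rose by 0.42 ± 0.14 with Nutlin in sh-con. The PSAT1 call with AICAR in sh-con was lost without DMSO array 1 of sh-con (adjusted p = 0.125) or AICAR array 1 of sh-con (0.0547). The PSAT1 call with Nutlin was lost with each array centred on its median (adjusted p = 0.0989), without DMSO array 1 of sh-con (0.11), DMSO array 2 of sh-con (0.143), Nutlin array 1 of sh-con (0.0698) or Nutlin array 2 of sh-con (0.172).

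PHGDH, the first step of the same route, read 9.72 and 9.72 in sh-con DMSO, 8.78 and 8.79 in Nutlin and 9.44 and 9.29 in AICAR, and 9.93 and 10.07 (DMSO), 10.02 and 9.71 (Nutlin) and 9.73 and 9.88 (AICAR) in sh-p53. The 2 sh-con Nutlin arrays were the lowest of the 12. PHGDH fell by 0.94 ± 0.14 with Nutlin in sh-con (adjusted p = 7.33e-05) and changed by -0.14 ± 0.14 in sh-p53, and the responses differed by 0.80 ± 0.20 (adjusted p = 0.0178). The PHGDH call for this difference was lost without DMSO array 1 of sh-con (adjusted p = 0.0722), DMSO array 2 of sh-con (0.0607), DMSO array 1 of sh-p53 (0.1), Nutlin array 1 of sh-con (0.0544), Nutlin array 2 of sh-con (0.0549) or Nutlin array 1 of sh-p53 (0.107). With AICAR it stood at -0.36 ± 0.14 in sh-con, just short of the threshold (adjusted p = 0.0568) and past it in 6 alternatives, and at -0.20 ± 0.14 in sh-p53. Of the differences between lines for PSPH, -0.74 ± 0.23 with Nutlin (adjusted p = 0.0591) and -0.50 ± 0.23 with AICAR (adjusted p = 0.375), neither passed, though the first did in 7 alternatives.

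ASNS, asparagine synthetase, whose promoter stretch is shown above, fell with AICAR by 0.44 ± 0.15 in sh-con (adjusted p = 0.0229) and by 0.60 ± 0.15 in sh-p53 (adjusted p = 0.00325), and rose by 0.48 ± 0.15 with Nutlin in sh-con (adjusted p = 0.0199). The ASNS call with AICAR in sh-con was lost with only the arrays of the groups compared (adjusted p = 0.0504), without DMSO array 1 of sh-con (0.112), DMSO array 2 of sh-con (0.0825) or AICAR array 2 of sh-con (0.24). The ASNS call with AICAR in sh-p53 was lost without DMSO array 1 of sh-p53 (adjusted p = 0.0516). The ASNS call with Nutlin was lost with each array centred on its median (adjusted p = 0.0655), without DMSO array 1 of sh-con (0.105), DMSO array 2 of sh-con (0.0803), Nutlin array 1 of sh-con (0.0988) or Nutlin array 2 of sh-con (0.0618). PYCR1, which makes proline, fell with AICAR by 0.83 ± 0.16 in sh-con and 0.60 ± 0.16 in the sh-p53 line, and by 0.48 ± 0.16 with Nutlin in sh-con. The PYCR1 call with AICAR in sh-p53 was lost without DMSO array 2 of sh-p53 (adjusted p = 0.11). The PYCR1 call with Nutlin was lost without DMSO array 1 of sh-con (adjusted p = 0.167), DMSO array 2 of sh-con (0.0701), Nutlin array 1 of sh-con (0.097) or Nutlin array 2 of sh-con (0.102). CTH, which makes cysteine, fell with AICAR by 0.67 ± 0.19 in sh-con and by 0.56 ± 0.19 in the sh-p53 line, and by 0.60 ± 0.19 with Nutlin in sh-con. The CTH call with AICAR in sh-con was lost without DMSO array 1 of sh-con (adjusted p = 0.0582) or AICAR array 2 of sh-con (0.142). The CTH call with AICAR in sh-p53 was lost without DMSO array 1 of sh-p53 (adjusted p = 0.0919), DMSO array 2 of sh-p53 (0.093) or AICAR array 1 of sh-p53 (0.225). The CTH call with Nutlin was lost after another quantile normalisation (adjusted p = 0.0539), without DMSO array 1 of sh-con (0.119), DMSO array 2 of sh-con (0.0628) or Nutlin array 2 of sh-con (0.229). ALDH18A1, the first enzyme of proline synthesis, fell in sh-con by 0.46 ± 0.14 with AICAR and 0.52 ± 0.14 with Nutlin, and SHMT2, the mitochondrial serine hydroxymethyltransferase, by 0.40 ± 0.15 with AICAR. The ALDH18A1 call with AICAR was lost without DMSO array 1 of sh-con (adjusted p = 0.138) or AICAR array 2 of sh-con (0.103). The ALDH18A1 call with Nutlin was lost without DMSO array 1 of sh-con (adjusted p = 0.109) or Nutlin array 2 of sh-con (0.144). The SHMT2 call with AICAR was lost with only the arrays of the groups compared (adjusted p = 0.0688), without DMSO array 1 of sh-con (0.214), DMSO array 2 of sh-con (0.0812) or AICAR array 2 of sh-con (0.266).

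Among the 8 transporters SLC7A11, the cystine-glutamate exchanger that supplies cysteine for glutathione, fell most. It read 9.52 and 9.45 in sh-con DMSO, 9.72 and 9.57 in Nutlin and 7.45 and 6.80 in AICAR, and 9.40 and 9.30 (DMSO), 9.49 and 9.45 (Nutlin) and 5.79 and 6.30 (AICAR) in sh-p53. The sh-p53 AICAR arrays lay below those of sh-con AICAR, and both far below every DMSO and Nutlin array. SLC7A11 fell by 2.36 ± 0.19 with AICAR in sh-con, 5.13-fold (adjusted p = 6.11e-08), and fell by 3.30 ± 0.19 in sh-p53, 9.84-fold (adjusted p = 3.76e-09). The difference between the lines was -0.94 ± 0.27 (adjusted p = 0.11), and passed with a variance trend (adjusted p = 0.0462) and without AICAR array 2 of sh-con (0.0089). The sh-con AICAR duplicates of SLC7A11 lay 0.65 apart, the widest duplicate gap among the 38 genes. With Nutlin it stood at 0.16 and 0.12 in the lines, neither passing.

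SLC7A1, the carrier of arginine and lysine, read 9.43 and 9.29 in sh-con DMSO, 9.25 and 8.88 in Nutlin and 8.22 and 7.80 in AICAR, and 9.41 and 9.15 (DMSO), 9.09 and 9.17 (Nutlin) and 8.31 and 8.36 (AICAR) in sh-p53. SLC7A1 fell with AICAR by 1.35 ± 0.17 in sh-con and by 0.95 ± 0.17 in the sh-p53 line (adjusted p = 5.81e-06 and 0.000231). SLC1A4, a carrier of alanine, serine and cysteine, read 7.94 and 7.98 in sh-con DMSO, 7.54 and 7.65 in Nutlin and 7.002 and 6.53 in AICAR, and 8.33 and 8.03 (DMSO), 8.06 and 8.14 (Nutlin) and 7.51 and 7.65 (AICAR) in sh-p53. For both carriers the AICAR arrays of a line lay below its DMSO and Nutlin arrays. SLC1A4 fell by 1.198 ± 0.16 in sh-con (adjusted p = 1.53e-05) and by 0.60 ± 0.16 in sh-p53 (adjusted p = 0.00684). The SLC1A4 call in sh-p53 was lost without DMSO array 1 of sh-p53 (adjusted p = 0.0962) or AICAR array 1 of sh-p53 (0.0652). SLC6A9, a glycine carrier, fell by 0.56 ± 0.14 in sh-con (adjusted p = 0.00406) and 0.37 ± 0.14 in sh-p53 (adjusted p = 0.043). The SLC6A9 call in sh-p53 was lost with a variance trend (adjusted p = 0.056), without DMSO array 1 of sh-con (0.061), DMSO array 2 of sh-con (0.0609), DMSO array 1 of sh-p53 (0.16), DMSO array 2 of sh-p53 (0.118), Nutlin array 1 of sh-con (0.0532), Nutlin array 2 of sh-con (0.0532), AICAR array 1 of sh-p53 (0.0565) or AICAR array 2 of sh-p53 (0.219).

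The other transporters fell in a single line or not at all. SLC1A5, the glutamine carrier, fell in sh-con by 0.61 ± 0.14 with AICAR and 0.39 ± 0.14 with Nutlin, and stood at -0.05 ± 0.14 with AICAR in sh-p53. The SLC1A5 call with Nutlin was lost after another quantile normalisation (adjusted p = 0.0833), with the mean of its probe sets (adjusted p = 0.0511), without DMSO array 1 of sh-con (0.32), DMSO array 2 of sh-con (0.058), DMSO array 1 of sh-p53 (0.054), DMSO array 2 of sh-p53 (0.0539), Nutlin array 1 of sh-con (0.105) or Nutlin array 2 of sh-con (0.166). A second, dimmer SLC1A5 probe set stood at -0.18 ± 0.16 with AICAR in sh-con, which did not pass, and fell by 0.51 ± 0.16 in sh-p53 (adjusted p = 0.0167), so its probe sets disagreed on the line. SLC38A2, an amino acid carrier that cells induce when starved, fell in sh-p53 by 0.68 ± 0.14 (adjusted p = 0.000758) and stood at -0.25 ± 0.14 in sh-con, with a difference between the lines of -0.43 ± 0.19 (adjusted p = 0.365). SLC7A5 and SLC3A2, which form the heterodimer that carries large neutral amino acids, passed in no comparison. With AICAR SLC7A5 stood at -0.17 ± 0.13 in sh-con and 0.22 ± 0.13 in the sh-p53 line, and SLC3A2 at 0.00 ± 0.14 and -0.11 ± 0.14. SLC3A2 also pairs with SLC7A11 in the cystine exchanger.

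**Figure D3:**
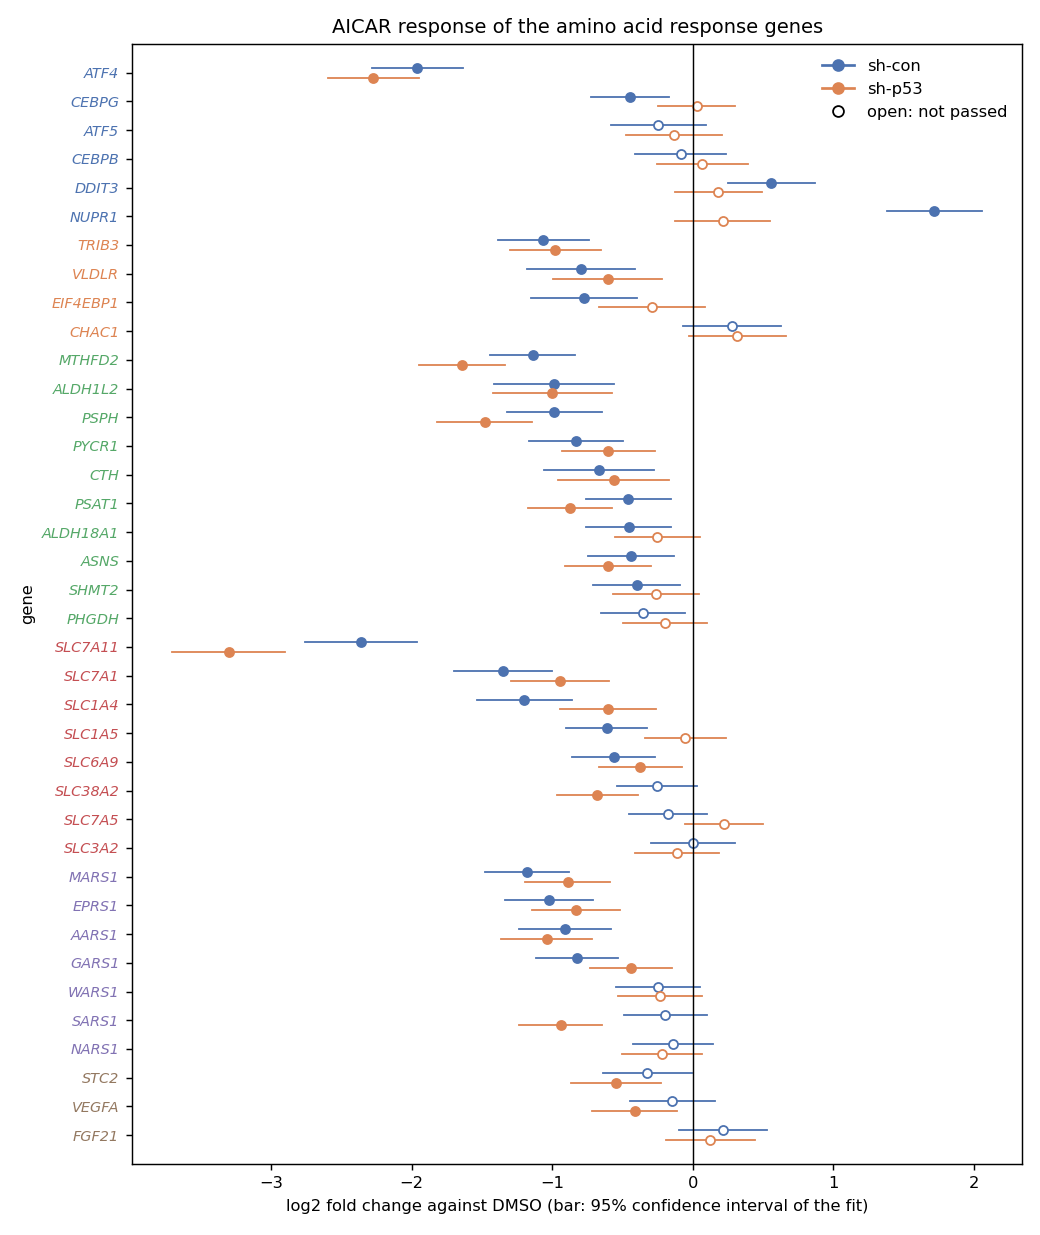
Log2 change with AICAR against DMSO for each of the 38 genes, with its 95% interval, in sh-con and sh-p53; filled points passed at an adjusted p under 0.05. In both lines most genes lie left of 0, SLC7A11 and ATF4 furthest; NUPR1 lies to the right in sh-con.

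Of the 7 tRNA synthetases, which charge tRNAs with their amino acids, 4 fell with AICAR in sh-con and 5 in the sh-p53 line. Over all genes 23.2% and 21.6% fell. Of the 7, 0 rose in either line, where 14.6% and 16.2% of all genes did. MARS1, for methionine, read 9.73 and 9.72 in sh-con DMSO, 9.69 and 9.65 in Nutlin and 8.71 and 8.39 in AICAR, and 9.90 and 9.89 (DMSO), 10.05 and 9.87 (Nutlin) and 8.92 and 9.09 (AICAR) in sh-p53. EPRS1, for glutamate and proline, read 10.12 and 10.05 in sh-con DMSO, 10.12 and 9.94 in Nutlin and 9.16 and 8.97 in AICAR, and 10.07 and 10.12 (DMSO), 10.13 and 10.03 (Nutlin) and 9.08 and 9.45 (AICAR) in sh-p53. AARS1, for alanine, read 10.48 and 10.37 in sh-con DMSO, 10.40 and 10.19 in Nutlin and 9.66 and 9.38 in AICAR, and 10.39 and 10.31 (DMSO), 10.40 and 10.21 (Nutlin) and 9.15 and 9.48 (AICAR) in sh-p53. For all 3 the AICAR arrays lay below the other arrays of the line, while DMSO and Nutlin arrays were close. With AICAR MARS1 fell by 1.18 ± 0.14 in sh-con and 0.89 ± 0.14 in the sh-p53 line, EPRS1 by 1.02 ± 0.15 and 0.83 ± 0.15, and AARS1 by 0.91 ± 0.15 and 1.04 ± 0.15. GARS1, for glycine, fell by 0.82 ± 0.14 in sh-con and 0.44 ± 0.14 in the sh-p53 line. The GARS1 call in sh-p53 was lost without DMSO array 1 of sh-p53 (adjusted p = 0.0771), DMSO array 2 of sh-p53 (0.0895) or AICAR array 1 of sh-p53 (0.195).

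SARS1, the synthetase for serine, followed another pattern. It read 10.13 and 9.93 in sh-con DMSO, 10.81 and 10.87 in Nutlin and 9.85 and 9.82 in AICAR, and 9.99 and 10.17 (DMSO), 10.29 and 10.18 (Nutlin) and 9.02 and 9.26 (AICAR) in sh-p53. The sh-con Nutlin arrays were the highest and the sh-p53 AICAR arrays the lowest of the 12. SARS1 rose by 0.81 ± 0.14 with Nutlin in sh-con (adjusted p = 0.000275), fell by 0.94 ± 0.14 with AICAR in sh-p53 (adjusted p = 4.87e-05), and stood at -0.19 ± 0.14 with AICAR in sh-con and 0.15 ± 0.14 with Nutlin in the sh-p53 line. The differences between the lines, -0.65 ± 0.20 for Nutlin (adjusted p = 0.0532) and -0.75 ± 0.20 for AICAR (adjusted p = 0.0816), did not pass, though they did in 6 and 3 alternatives. NARS1 and WARS1, for asparagine and tryptophan, passed with neither compound against DMSO in either line, with changes with AICAR of -0.14 and -0.25 in sh-con and -0.22 and -0.23 in the sh-p53 line.

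Of the 3 secreted factors, STC2, a glycoprotein hormone, fell by 0.55 ± 0.15 with AICAR in sh-p53 (adjusted p = 0.00912) and by 0.53 ± 0.15 with Nutlin in sh-con (adjusted p = 0.0141). The STC2 call with AICAR was lost without DMSO array 1 of sh-p53 (adjusted p = 0.0553) or AICAR array 1 of sh-p53 (0.0527). The STC2 call with Nutlin was lost without DMSO array 1 of sh-con (adjusted p = 0.111) or Nutlin array 2 of sh-con (0.15). VEGFA, the growth factor of blood vessels, fell by 0.41 ± 0.14 with AICAR in sh-p53 (adjusted p = 0.0297). The VEGFA call with AICAR was lost without DMSO array 1 of sh-p53 (adjusted p = 0.142), DMSO array 2 of sh-p53 (0.079), AICAR array 1 of sh-p53 (0.082) or AICAR array 2 of sh-p53 (0.113). FGF21 passed in no comparison and was the dimmest of the 38, between 4.45 and 5.03 on the 12 arrays around a filter level of 4.58. At such levels little of a change could be read.

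**Figure D4:**
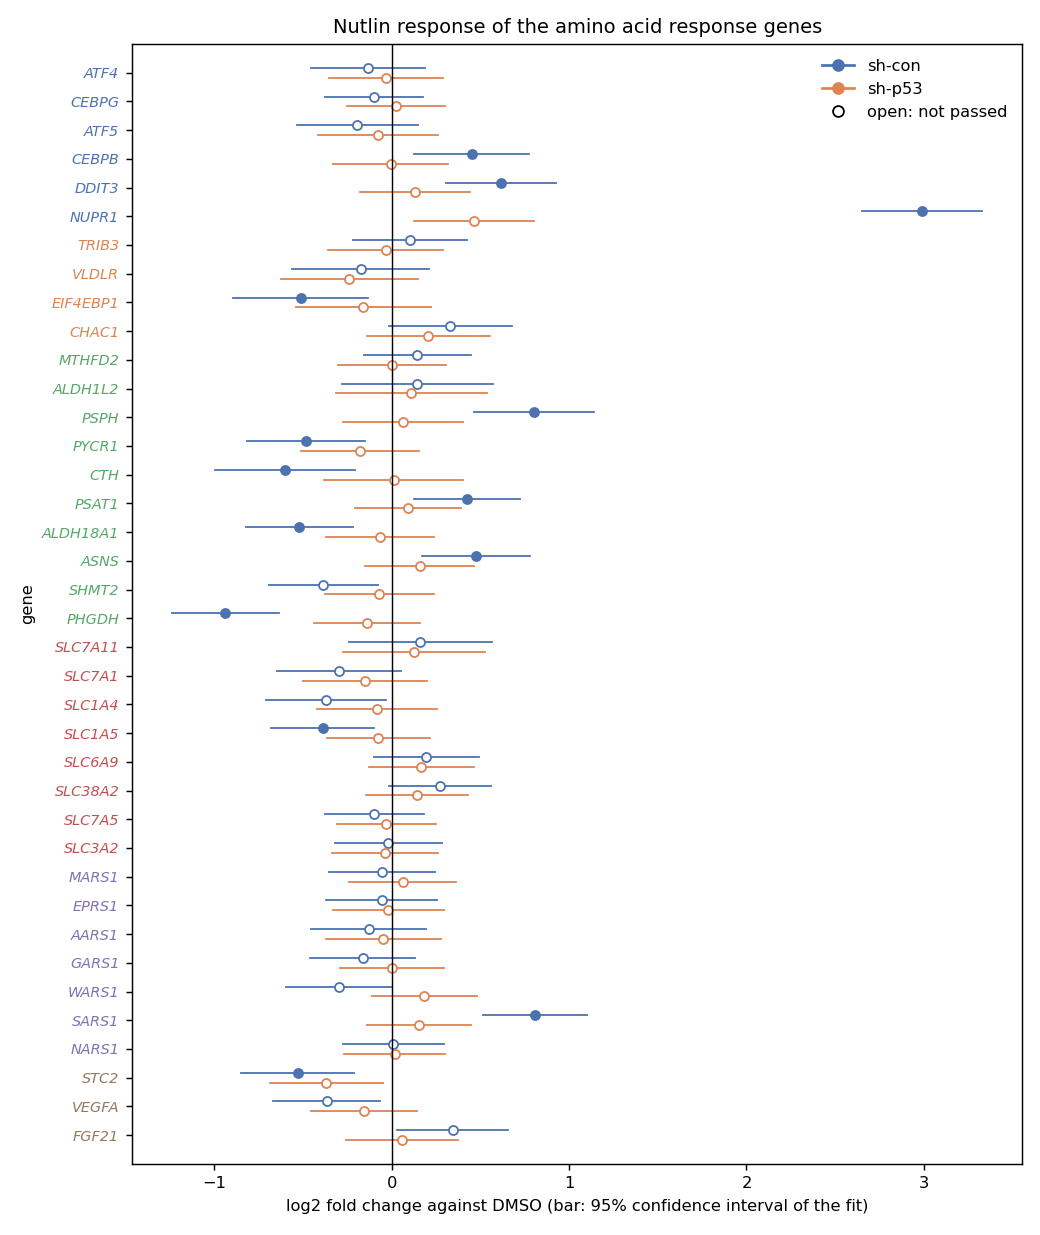
Log2 change with Nutlin against DMSO for each of the 38 genes, with its 95% interval, in sh-con and sh-p53; filled points passed at an adjusted p under 0.05. In sh-con 7 genes rose, NUPR1 furthest, and 7 fell, PHGDH furthest; no point of sh-p53 is filled.

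The response to AICAR was also counted for genes with and without the CARE letters, where 23.2% of all genes fell in sh-con and 21.6% in the sh-p53 line. In sh-con 8 of the 12 genes with a match fell and 0 rose, and 9 of the 18 tested genes with a window but no match fell and 1 rose, with medians of -0.53 and -0.41. In sh-p53 6 of the 12 and 11 of the 18 fell, with medians of -0.33 and -0.55, so the order of the medians was the other way round. ATF4, TRIB3 and MTHFD2 were among the genes that fell with no match in the window. No test was made, and a window of 300 bases leaves out elements further away.

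Setting the compounds against each other took the DMSO means, which the compound responses of a line share, out of the difference. The DMSO arrays still entered the estimate of the spread. With AICAR against Nutlin in sh-con 21 of the 38 were lower, where 17.9% of all genes were, and 1 was higher, where 16.9% were. In sh-p53 20 were lower, where 19% of all genes were, and 0 higher, where 15.6% were. The higher gene was PHGDH, by 0.58 ± 0.14 (adjusted p = 0.00349). In sh-con the difference was -1.27 ± 0.16 for NUPR1 and -1.79 ± 0.16 for PSPH (adjusted p = 6.24e-06 and 9.88e-08). SLC7A11 differed by -2.52 ± 0.19 in sh-con, against -3.42 ± 0.19 in the p53-hairpin line. Of these calls 18 of 22 in sh-con and 14 of 20 in the sh-p53 line held in every alternative in which the gene was tested. ALDH1L2, counted among them in both lines, was tested in 19 of the 20 alternatives. The filter on dim genes at the higher percentile left it out. Centring on the array median moved changes of all genes in sh-p53 by -0.11 and the share of calls that were higher from 45.05% to 30.8%, with 20 of the 38 still lower.

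The rest of the pathway was followed through 6 further lists. The first holds 16 regulators, the eIF2 kinases and phosphatase subunits and further factors, and its counts were near the shares of all genes. With AICAR 2 rose and 4 fell in sh-con, where 14.6% of all genes rose and 23.2% fell, and 3 rose and 3 fell in sh-p53, where 16.2% rose and 21.6% fell, with medians of -0.08 and 0.06. ATF3, a stress factor downstream of ATF4, rose by 1.47 ± 0.14 in sh-con and 1.37 ± 0.14 in the sh-p53 line, and PPP1R15B, a subunit that directs eIF2 dephosphorylation, by 0.81 ± 0.14 and 0.87 ± 0.14. NFE2L2, which encodes the antioxidant factor NRF2, another known activator of SLC7A11, fell by 1.25 ± 0.14 and 1.29 ± 0.14. With Nutlin in sh-con 2 rose and 4 fell, where 11.3% of all genes rose and 18.9% fell. EIF2AK4, the amino acid sensing kinase GCN2, rose by 0.53 ± 0.14 (adjusted p = 0.00707). The EIF2AK4 call with Nutlin was lost without DMSO array 1 of sh-con (adjusted p = 0.0614) or Nutlin array 2 of sh-con (0.0757). Without DMSO array 1 of sh-con the 4 regulators that fell with AICAR in sh-con became 1, and the 2 and 4 with Nutlin became 0 and 0, and without AICAR array 2 of sh-con the 4 became 2. Without Nutlin array 2 of sh-con the Nutlin counts were again 0 and 0, and the 2 that rose became 1 without DMSO array 2 of sh-con, Nutlin array 1 of sh-con or either sh-p53 DMSO array, and the 4 that fell became 2 without DMSO array 2 of sh-con. With median centring, no filter, the 50th percentile filter or a variance trend 1 rose with Nutlin, and after another quantile normalisation 2 fell with Nutlin and 5 rose with AICAR in sh-p53. With the 50th percentile filter 1 rose with AICAR in sh-con.

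Of 17 further ATF4 targets some rose and some fell. With AICAR 6 rose and 3 fell in sh-con, where 14.6% of all genes rose and 23.2% fell, and 4 rose and 5 fell in sh-p53, where 16.2% rose and 21.6% fell, with medians of 0.16 and 0.02. SESN2, a stress-induced inhibitor of growth signalling that p53 also controls, rose by 1.89 ± 0.14 in sh-con and 1.19 ± 0.14 in the sh-p53 line, and MAP1LC3B, of autophagosomes, by 1.22 ± 0.15 and 1.31 ± 0.15. NARS2, a mitochondrial synthetase, fell by 1.39 ± 0.17 and 1.45 ± 0.17, and XPOT, the exporter of tRNA from the nucleus, by 1.34 ± 0.18 and 0.92 ± 0.18. With Nutlin in sh-con 10 rose and 1 fell, where 11.3% of all genes rose and 18.9% fell. GDF15, a stress hormone and p53 target, led at 1.69 ± 0.15. In sh-p53 0 rose and 0 fell, where 0.0796% of all genes rose and 0% fell. The Nutlin response was lower in sh-p53 for 6 of the 17, where 2.73% of all genes were lower, and higher for 0, where 4.67% were. With median centring this 6 became 3. SESN2 and GDF15 are p53 targets too, and such genes of the list were not counted apart. The 10 became 6 without DMSO array 1 of sh-con, and the 1 became 2 when any 1 of the 4 AICAR arrays was left out, and with median centring, the 50th percentile filter, the replicate block, only the arrays compared or a variance trend.

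Of the cytosolic tRNA synthetases outside the 38 genes 12 were tested. With AICAR 8 fell in sh-con and 8 in the sh-p53 line, where 23.2% and 21.6% of all genes fell, and 0 rose, where 14.6% and 16.2% did. In each line 4 did not pass, and the medians of the 12 were -0.58 and -0.63. YARS1, for tyrosine, fell by 1.47 ± 0.15 and 1.72 ± 0.15, and FARSB, a subunit of that for phenylalanine, by 1.37 ± 0.14 and 1.26 ± 0.14. With Nutlin in sh-con 3 fell, where 18.9% of all genes fell, and 0 rose, where 11.3% did. FARSB fell by 0.81 ± 0.14, and the 0 became 1 when any 1 of the sh-p53 Nutlin or sh-con AICAR arrays was left out, and with another quantile normalisation, the 50th percentile filter, only the arrays compared or a variance trend.

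Of 13 other enzymes of serine, glycine and folate metabolism 8 were tested. With Nutlin in sh-con 4 fell and 2 rose, where 18.9% of all genes fell and 11.3% rose. SHMT1, the cytosolic serine hydroxymethyltransferase, fell by 1.88 ± 0.16, MTHFD1, the cytosolic counterpart of MTHFD2, by 1.52 ± 0.14, and ALDH1L1, the cytosolic counterpart of ALDH1L2, rose by 1.40 ± 0.16. With AICAR 3 fell and 1 rose in sh-con, where 23.2% and 14.6% of all genes did, and 3 fell and 0 rose in sh-p53, where 21.6% and 16.2% did, with medians of -0.24 and -0.13. MTHFD1L, of mitochondria, fell by 0.81 ± 0.14 and 0.68 ± 0.14. The 1 that rose became 0 when any 1 sh-con DMSO or AICAR array was left out, each array was centred on its median or only the arrays compared were fitted, and the 3 of sh-p53 became 1 without AICAR array 1 of sh-p53. In sh-p53 the 0 that rose became 1 with another quantile normalisation or a variance trend, and the 2 that rose with Nutlin in sh-con became 0 with the 50th percentile filter.

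Of 14 further amino acid transporters tested, of 18, 5 fell and 3 rose with AICAR in sh-con, where 23.2% and 14.6% of all genes did, and 7 fell and 2 rose in sh-p53, where 21.6% and 16.2% did. Their medians were -0.20 and -0.38. SLC7A2, a relative of SLC7A1 that carries arginine, fell by 1.65 ± 0.19 and 1.38 ± 0.19, and SLC38A1, a relative of SLC38A2, by 1.23 ± 0.16 and 0.96 ± 0.16. With Nutlin in sh-con 3 rose and 0 fell, where 11.3% of all genes rose and 18.9% fell. SLC1A2, a glutamate carrier, rose by 1.86 ± 0.19 and SLC43A2, a carrier of neutral amino acids, by 1.28 ± 0.14. The counts with AICAR moved with single arrays, and centring on the array median left 0 that rose in either line. The 5 that fell in sh-con became 3 without DMSO array 1 of sh-con or AICAR array 2 of sh-con, and the 3 that rose became 0 without DMSO array 2 of sh-con or AICAR array 1 of sh-con. In sh-p53 the 7 became 4 without DMSO array 1 of sh-p53 and 3 without AICAR array 1 of sh-p53, and the 2 became 1 or 0 when any 1 sh-p53 DMSO or AICAR array was left out. The 0 that fell with Nutlin became 1 without either sh-con AICAR array, and with the 50th percentile filter, only the arrays compared or a variance trend.

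Genes of the other arms of the response to misfolded protein were followed through 15 targets of ATF6 and XBP1. With AICAR 4 fell and 1 rose in each line, where 23.2% of all genes fell and 14.6% rose in sh-con and 21.6% and 16.2% did in the sh-p53 line, so that the falls were near the share of all genes. The medians were -0.06 in sh-con and -0.05 in the sh-p53 line. XBP1 itself fell by 0.77 ± 0.14 and 1.07 ± 0.14, SDF2L1, a chaperone partner, by 0.92 ± 0.15 and 0.77 ± 0.15, and CRELD2, another factor of the endoplasmic reticulum, rose by 0.55 ± 0.13 and 0.61 ± 0.13. With Nutlin in sh-con 3 fell and 0 rose, where 18.9% of all genes fell and 11.3% rose. The 0 became 1 with another quantile normalisation or only the arrays compared, and the 3 became 5 with a variance trend and 1 without DMSO array 2 of sh-con or Nutlin array 1 of sh-con. The 4 that fell with AICAR in sh-con became 2 without DMSO array 1 of sh-con or AICAR array 2 of sh-con.

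**Figure D5:**
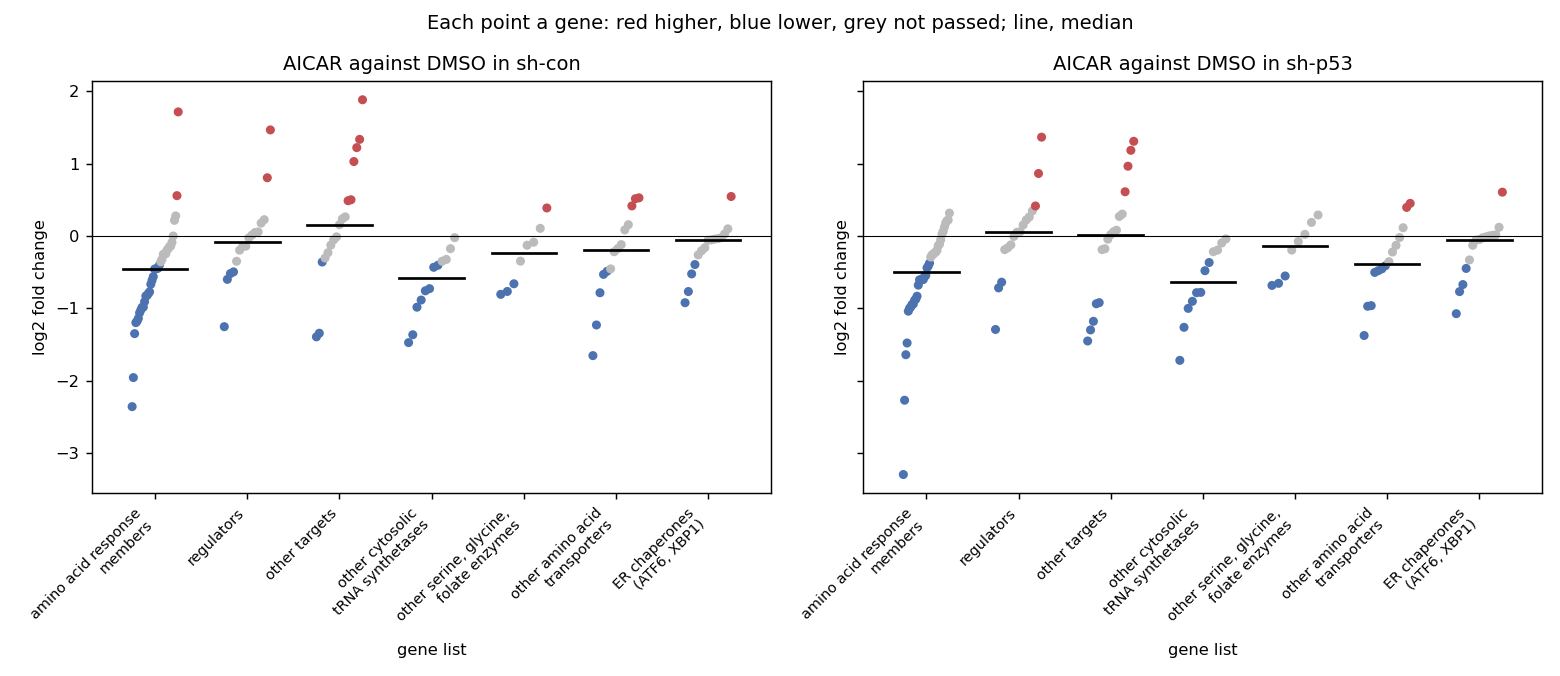
Log2 change with AICAR against DMSO in sh-con and sh-p53 for the 38 genes and for the 6 further lists. Points are genes, red where they rose, blue where they fell and grey where they did not pass, and lines are medians. The medians of the 38 genes (-0.46 and -0.49) lie below 0 in both lines, as do those of the other cytosolic synthetases (-0.58 and -0.63), transporters (-0.20 and -0.38), serine, glycine and folate enzymes (-0.24 and -0.13) and targets of ATF6 and XBP1 (-0.06 and -0.05).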

How the data were processed

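Total RNA was extracted with TRI reagent, labelled with biotin and hybridised to Affymetrix arrays, per the labels' protocols. The deposited values were log2 levels per probe set and array, from 2.14 to 14.33, and the submitters' processing notes name RMA and Partek; their versions and settings are not given in the sources used here. This method draws arrays towards one distribution and gives no detection call, so a shift of most transcripts would be removed in part and changes of dim genes are understated. Array titles gave the 6 groups, and each of the 12 value columns matched 1 title. The platform annotation, which can be old, listed 1 symbol for 19460 of 33297 probe sets, several for 1754 and none for 12083. This gave 18417 genes, each at its brightest probe set, of which those with a mean under the 25th percentile (4.58) were left out and 13813 tested. The transcript targeted by the hairpin is not analysed here.

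A linear model of the 6 group means was fitted to the 12 arrays with limma 3.58.1 in R 4.3.3, 2-sided, with Benjamini-Hochberg adjustment over the 13813 genes in each of 9 comparisons, and genes were called, or passed, at an adjusted p under 0.05. Errors after ± are standard errors of the fit, which had 6 residual degrees of freedom and 11.3 from its prior. The probe sets of 1 gene were fitted in the same way over all 14615 probe sets past the filter. The fit was run on simulated data with independent noise, where far fewer genes changed, in a single group, than were called here with AICAR. That setting is unlike these arrays, so the run checks the code only. Having 2 arrays a group limits the precision, and p-values rest on the spread of duplicate cultures of 1 line. Promoter windows are those of RefSeq. All 40 genes could be named, with array values for ATF4 and for genes that passed with a change of at least 1 with a compound. Those of ALDH1L2, PHGDH, SARS1 and CHAC1 fell outside this rule and were added after their values were seen. Up to 4 passing genes per direction were named from each further list. The genes and lists were chosen with earlier results of these data known. In all, 20 alternatives were run. They were another quantile normalisation, median centring, no filter or one at the 50th percentile, the mean of a gene's probe sets, a replicate block, only the arrays compared, a variance trend, and each of the 12 arrays left out. Those for the further lists were added after seeing the data.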

Additional observations from a re-analysis of the deposited data

Results flagged for a closer look

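In 3 cases the response of a gene to a compound differed between the lines by the interaction test of limma. The NUPR1 response in sh-p53 was lower than in sh-con, with differences of -2.53 ± 0.23 for Nutlin and -1.51 ± 0.23 for AICAR on the log2 scale. The PHGDH response to Nutlin was higher in sh-p53 by 0.80 ± 0.20, since the gene fell in sh-con and stood at -0.14 in sh-p53. The NUPR1 differences passed in all 20 alternatives, and that of PHGDH was lost when any 1 of 6 arrays was left out, with adjusted p-values from 0.0544 to 0.107. NUPR1 and PHGDH were each read from a single probe set.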

How the results depend on the processing

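The main results were the counts of genes called in each comparison and direction, and the dimmer ATF4 probe set against the brighter one in each comparison. Under an alternative 342 of these results stayed the same and 27, all counts, moved. A count stayed the same if it lay within 1.5 times the main count or if both were 0, and a probe set if its call held. For called genes 0 changes reversed. For single genes 6632 results stayed on their side of the threshold, 125 lost a call and 47 gained one. Centring on the array median reduced the genes that rose in sh-con to 4 with Nutlin and 1 with AICAR, and another quantile normalisation reduced those that fell with Nutlin in sh-con to 4. Lower Nutlin responses in sh-p53 than in sh-con numbered 4 after another quantile normalisation and 3 with the 50th percentile filter, with only the arrays compared, or with a variance trend. Lower AICAR responses numbered 2, 2 and 3 with quantile normalisation, the 50th percentile filter and the variance trend. Leaving out each array in turn gave ranges of 3 to 7 genes higher and 1 to 10 lower with Nutlin in sh-con, 2 to 2 and 17 to 24 with AICAR in sh-con, 14 to 22 lower with AICAR in sh-p53, 0 to 1 higher and 1 to 3 lower Nutlin responses, 1 to 2 lower AICAR responses, 1 to 1 higher and 17 to 21 lower for AICAR against Nutlin in sh-con and 15 to 20 lower in the sh-p53 line. These changes in the counts come with fewer samples or genes in the fit, or another scale, and their cause was not tested further.

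The labels number the arrays of each group 1 and 2. Over 15 pairs of groups the duplicates' differences correlated at -0.558 to 0.567 across genes (median 0.0277), over 0.1 in 7 pairs and under -0.1 in 7, so the numbers were not taken to pair the arrays. With the replicate block 23 genes fell with AICAR in sh-con and 22 in the sh-p53 line, as without it, while with Nutlin in sh-con 7 rose and 8 fell; the block ended the call of CEBPG for AICAR against Nutlin in sh-con (adjusted p = 0.0593), added VEGFA with Nutlin in sh-con (0.0494) and changed no other call of the 38 genes. Signals near the filter level limit what can be read for FGF21 and CHAC1.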
